A study of Homo sapiens with 6 samples.

Results

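Antisense transcripts are RNAs read from the DNA strand opposite to another gene. The set described here was the rows that the deposited annotation types as antisense and that were selected on a mean of at least 1 FPKM (fragments mapped per length of transcript and per depth of the library) over all 6 libraries. It held 599 of the 3828 antisense rows among 31951 genes. A549, an established line from a human lung adenocarcinoma, was transfected with a plasmid that carries APEX1 (APEX1-OE, 3 libraries) or with the control plasmid (Ctrl, 3 libraries), and the transgene came on top of the cells' own gene. Polyadenylated RNA was sequenced with a stranded, paired-end kit. The libraries of APEX1-OE held 28987040, 41009197 and 35234411 total counts (replicates 1 to 3), and those of Ctrl held 28131955, 34398771 and 35834880. Values below keep this order of replicates. The study's methods speak of repeated experiments in general, but the labels do not say that these libraries are separate cultures, so p-values measure only the spread between these libraries, which may be technical.

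Antisense RNAs can arise from a start site shared with a coding gene on the other strand, or from within or beyond such a gene. Some act on the neighbouring gene in cis, others act elsewhere in the cell, and for many no function is known. The sources used here do not state whether reads were counted by strand. If they were not, reads of a gene and of its antisense partner cannot be told apart, and every antisense level below is to be read together with that of its partner.

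The label of the cells was compared with marker genes. KRT8 and KRT18, keratins of simple epithelia, had mean FPKM of 3046 and 2464, and AKR1B10 and ALDH1A1, enzymes known to be abundant in A549, had 735 and 1278. CDH1, the epithelial cadherin, had a mean FPKM of 7.97, whereas EPCAM lay at 0.342, NAPSA at 1.38 and the surfactant gene SFTPB at 0.0267. Among markers of other cells, the collagen gene COL1A1 lay at 0.598 and the endothelial gene PECAM1 at 0.0267. PTPRC of leukocytes and COL1A2 of fibroblasts had at most 1 count in a library.

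APEX1, the endonuclease of base excision repair carried by the plasmid, had FPKM of 618, 680.3 and 768 in APEX1-OE replicates 1 to 3, and 129, 126 and 124 in Ctrl replicates 1 to 3. The 2 groups were thus widely apart, in the direction of the labels. It lies on the plus strand at chr14:20455191-20457772 (GRCh38), and 0 antisense rows overlapped its gene body.

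Of the 599 members, 579 were found in GENCODE release 44 by gene identifier and 20 were not. The exons of 513 of the 579 (88.6%) overlapped an exon of a gene on the other strand. Another 29 shared only the gene body, 20 lay head to head with a coding gene without overlap, and 17 had none of these neighbours. In the antisense rows under the threshold the exon overlap was 62.4%. For 125 members (21.6%), called wholly covered below, every exon base lay on opposite-strand exons, against 4.78% of the rows under the threshold. The annotation behind the deposited values is not stated, and the length behind the FPKM agreed within 5% with the GENCODE exon length for 370 of the 579. Among the wholly covered members it was 119 of 125. That length could be computed only for rows with an FPKM of at least 0.5 in a library, which were 597 of the 3137 matched rows under the threshold, and it agreed for 393 of them. For the other rows the coverage rests on gene models that could not be compared. The newer annotation keeps 566 members as lncRNA and types 9 as protein-coding, among them RP4-614O4.11, MMP24-AS1 and TUG1.

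The sequences of 4 abundant members are printed because their exons run across coding exons of their partners. They are given 5′ to 3′ on the strand of the member, from GRCh38, with bases opposite a coding exon of the partner's canonical transcript in capitals. The stretch of RP5-940J5.9 is chr12:6537794-6537883 on the minus strand, opposite GAPDH, and that of RP11-290D2.6 is chr13:45340039-45340128 on the plus strand, opposite TPT1. The stretch of RP11-138I1.4 is chr17:16382152-16382241 on the minus strand, opposite UBB, and that of RP3-416H24.1 is chr12:52245397-52245486 on the minus strand, opposite KRT7.
RP5-940J5.9: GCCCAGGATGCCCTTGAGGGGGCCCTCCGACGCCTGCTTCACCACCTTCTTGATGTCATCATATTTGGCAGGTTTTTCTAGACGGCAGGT
RP11-290D2.6: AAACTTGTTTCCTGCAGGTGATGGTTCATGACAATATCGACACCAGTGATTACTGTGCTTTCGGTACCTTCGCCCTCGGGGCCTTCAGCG
RP11-138I1.4: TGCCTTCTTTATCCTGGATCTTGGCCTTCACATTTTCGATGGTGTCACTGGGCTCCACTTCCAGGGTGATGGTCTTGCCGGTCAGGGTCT
RP3-416H24.1: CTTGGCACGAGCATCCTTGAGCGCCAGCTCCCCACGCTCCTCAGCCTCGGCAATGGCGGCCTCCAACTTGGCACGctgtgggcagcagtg
In the first 3 stretches all 90 bases lay opposite coding exons. In the stretch of RP3-416H24.1, 75 of 90 did, and the lower-case bases lay opposite an intron. The stretches were chosen for bases opposite coding exons, without bases annotated as untranslated, so these counts follow from the choice. Over its whole exon length of 422 bases, RP5-940J5.9 had 219 bases on coding exons of GAPDH and 203 on parts annotated as untranslated in any transcript. RP11-290D2.6 had 164 of 588 exon bases on coding exons of TPT1, and RP11-138I1.4 had 386 of 461 on those of UBB. For RP3-416H24.1 it was 221 of 1693 on those of KRT7.

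The median member had a mean FPKM of 2.26, with quartiles of 1.50 and 4.49. Of the members, 265 lay under 2, 66 reached 10 and 5 reached 100. The 12 most abundant members made up 44.8% of the summed mean FPKM. By comparison, the median of the 255 lincRNAs with a mean FPKM of at least 1 was 2.04, and that of the 10273 coding genes was 6.95. At the threshold, AC002117.1, COL4A2-AS1 and RP11-452K12.7 lay just inside with 1.01, 1.002 and 1.0, and RP13-39P12.3, AC079305.10 and MIR1539 just outside with 0.995, 0.995 and 0.993.

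The highest levels stood opposite abundant coding genes. RP5-940J5.9 (ENSG00000269968.1), opposite the glycolytic enzyme gene GAPDH, had FPKM of 1032, 565 and 463 in APEX1-OE and of 720, 858 and 762 in Ctrl. The APEX1-OE libraries held both the highest and the lowest value, so the groups overlapped. GAPDH itself had a mean FPKM of 2662, and the ratio of member to partner was 0.276. RP11-290D2.6, opposite TPT1, which encodes a translationally controlled tumour protein, had 175, 203 and 233 in APEX1-OE and 235, 232 and 297 in Ctrl. Its mean of 229 was above that of TPT1 (191), and the group ranges overlapped narrowly. RP11-138I1.4, opposite the ubiquitin gene UBB, had 230.1, 145 and 139 in APEX1-OE and 201, 219.9 and 225 in Ctrl, with a mean of 193 against 621 for UBB. RP3-416H24.1, named KRT7-AS in the newer annotation, had 162, 80.6 and 63.2 in APEX1-OE and 98.4, 109.6 and 84.5 in Ctrl. Its partner KRT7, a keratin of simple epithelia, had a mean FPKM of 2007.

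The other members of the 12 most abundant had means between 42.7 (RP11-1079K10.4, opposite the prohibitin gene PHB) and 154 (RP4-614O4.11). RP4-614O4.11 shared no exon base with MMP24, its partner, and stood above it (36.2). RP11-311F12.2 lay opposite ALDH3A1, an aldehyde dehydrogenase gene, with 93.2 against 1312. MIF-AS1 lay opposite the cytokine gene MIF with 91.7 against 141, and RP11-498C9.2 opposite P4HB, a disulfide isomerase gene, with 88.6 against 379. CTD-2616J11.9 had 52.7 against 51.1 for ETFB of the electron transfer flavoprotein, and RP11-386G11.10 had 52.0 against 435 for the tubulin gene TUBA1B. ZFAS1, a host of small nucleolar RNAs, had a mean of 128.

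**Figure D1:**
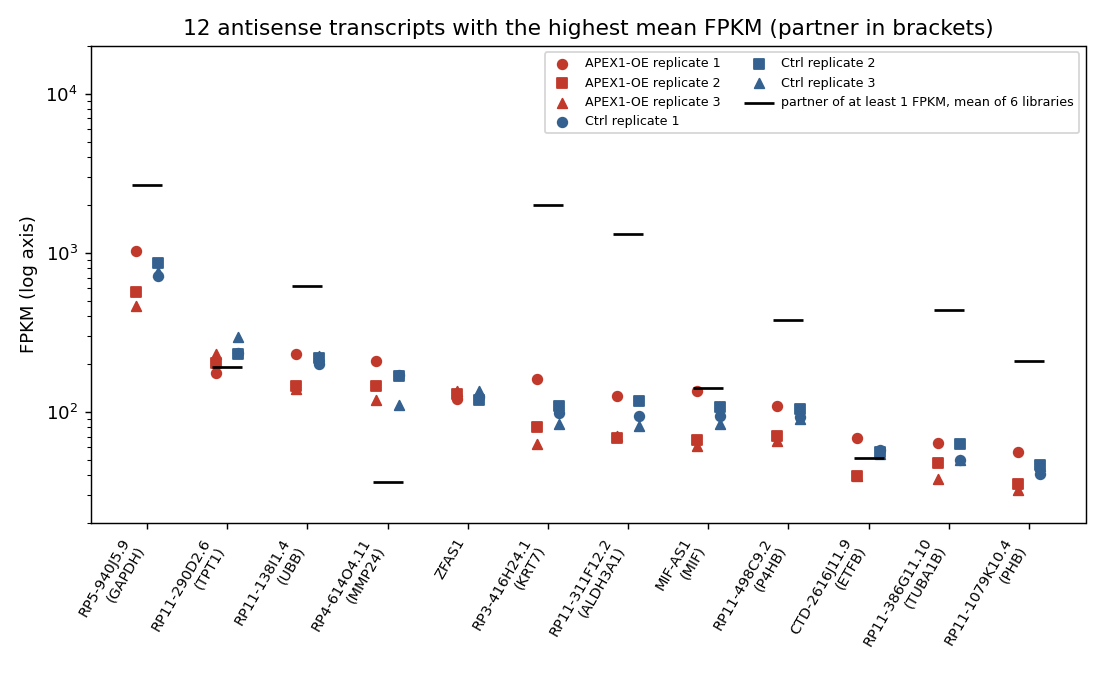
FPKM (log axis) of the 12 most abundant antisense transcripts in each of the 6 libraries, with the mean FPKM of the partner as a black bar where the partner has at least 1 FPKM. APEX1-OE replicate 1 is highest for RP5-940J5.9 (1032), and RP4-614O4.11 stands above its partner MMP24 (154 against 36.2).

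To compare member and partner without choosing rows by their own level, all antisense rows with a partner of at least 1 FPKM were grouped by how much of their exon length lay on opposite-strand exons. In the 226 rows that were wholly covered, the median ratio of antisense to partner FPKM was 0.156 (quartiles 0.0907 and 0.233). It was 0.0988 in 344 rows covered from 50% to under 100%, 0.0404 in 1099 rows covered by less, and 0.0064 in 641 rows without exon overlap. Across genes, which are not independent replicates and share libraries and exon sequence here, Spearman's rho between antisense and partner FPKM was 0.74 in the wholly covered rows and 0.15 in those without exon overlap. This order of the classes did not hold on the rows whose length agreed, which leaves out most low rows. There the median ratio was 0.181 in 169 wholly covered rows, 0.128 in 186 rows covered from 50% to under 100%, 0.0811 in 271 rows covered by less, and 0.117 in 64 rows without exon overlap. Among members alone, whose own level chose them, the ends were reversed, with 0.195 in 125 wholly covered members and 0.274 in 40 without exon overlap. Wholly covered rows reached the threshold in 55.3% of cases, against 6.24% without exon overlap.

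The level of the partner also sorted the wholly covered rows. With a partner under 1 FPKM, 0 of 49 rows reached the threshold. With a partner from 1 to under 10 FPKM it was 40 of 125, from 10 to under 100 it was 72 of 88, and at 100 FPKM and over it was 13 of 13. The part of counting without strand in these levels was not tested.

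**Figure D2:**
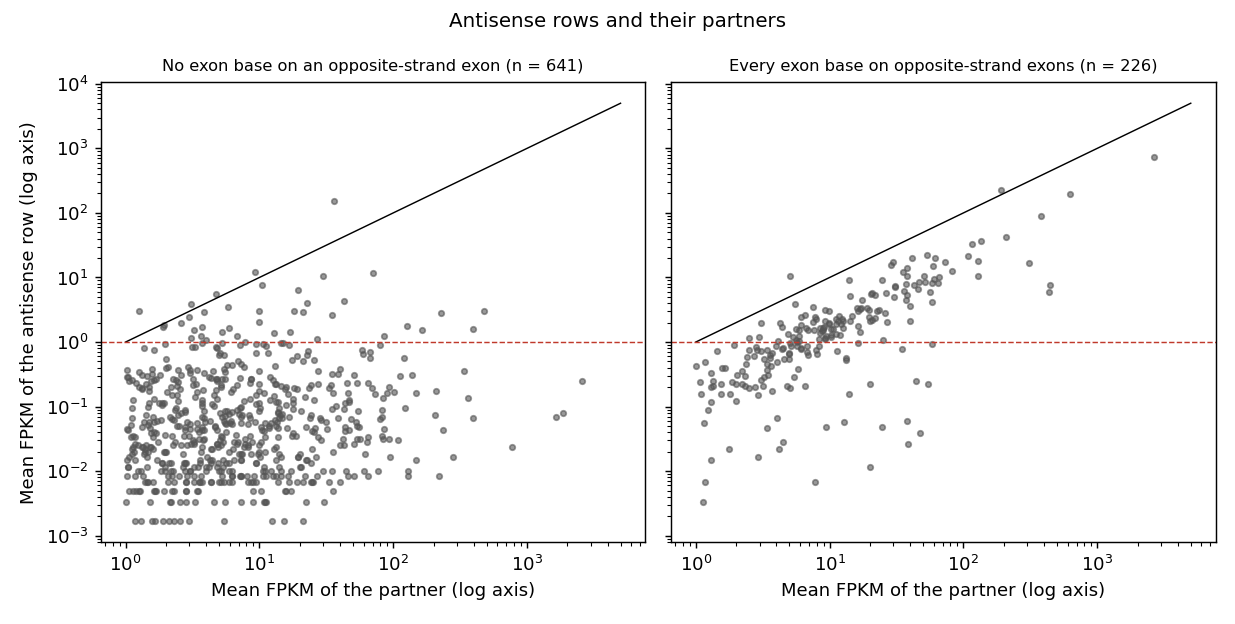
Mean FPKM of antisense rows against mean FPKM of their partners (log axes), with rows without exon overlap on the left (n = 641) and wholly covered rows on the right (n = 226). The black line marks equal levels and the dashed line an FPKM of 1, and 224 of the 226 wholly covered rows lie under the black line, with a median ratio of 0.156 over all 226.

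Some members stood far above their partner. FGD5-AS1, DLGAP1-AS1, UMAD1 and CASC8 were among the members with the largest ratios, and their partners lay between 0.00333 and 0.01 FPKM. FGD5-AS1 had a mean FPKM of 12.7, CASC8 4.01, DLGAP1-AS1 3.63 and UMAD1 1.85. These members were picked for that ratio, so the low level of the partner follows from the choice.

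A coding gene lay head to head within 1000 bases of 191 members (33.0%), against 24.3% of the antisense rows under the threshold. In the pairs of the members, the median distance between start sites was 350 bases. In 120 of these pairs the 5′ ends overlapped, and in 71 they were apart. The median FPKM was 1.95 for the members and 11.2 for their neighbours, and 33 members stood above their neighbour. Across these pairs Spearman's rho was 0.35, a description across genes (n = 191).

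Of 66 listed antisense RNAs with described functions, 59 had an FPKM row and 38 of these were typed as antisense, and 12 of the 38 were members. With the HOX and SNHG members outside the list they made 18, of which 0 passed the test by edgeR. Fitted levels in APEX1-OE were higher for 12 of the 18 and lower for 6, against 183 and 415 of all members tested. Without APEX1-OE replicate 3 the split of all members turned, to 330 higher and 268 lower. For 10 of the 18 the sign turned when some library was left out. ZFAS1 was the steadiest of the abundant ones, with FPKM of 121, 129 and 136 in APEX1-OE and 124, 119.6 and 136 in Ctrl. Its means were 129 ± 7.30 (SD, n = 3 libraries) and 126 ± 8.76 (SD, n = 3), a difference within the spread.

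The other hosts of small nucleolar RNAs were SNHG7 at 15.1, SNHG12 at 4.97, SNHG21 at 3.83 and SNHG10 at 1.58 mean FPKM. SNHG12 had 5.52, 5.24 and 5.15 in APEX1-OE and 4.43, 4.66 and 4.83 in Ctrl. Its groups did not overlap, but its log2 fold change of 0.19 (SE 0.22) had an adjusted p of 1.0 from edgeR. Without APEX1-OE replicate 1 the log2 fold change of SNHG12 was 0.05. From the HOX clusters, which encode factors of body patterning, 4 of 15 antisense rows were members. HOTAIRM1 had a mean FPKM of 2.77, HOXC13-AS 2.73, HOXB-AS1 1.05 and HOXC-AS1 1.03, and the groups of each overlapped.

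FGD5-AS1 had 7.06, 15.2 and 16.8 in APEX1-OE and 10.8, 10.4 and 15.7 in Ctrl. TUG1, a long noncoding RNA described in chromatin regulation, had 3.02, 7.35 and 7.38 in APEX1-OE and 3.41, 3.50 and 6.93 in Ctrl. In TUG1, APEX1-OE replicates 2 and 3 and Ctrl replicate 3 were high and the other libraries low, so the values did not follow the plasmid. NRAV, described in antiviral responses, had a mean FPKM of 9.89 with a coefficient of variation of 6.95% over the libraries. PITPNA-AS1 (12.1), MAFG-AS1 (6.50), NNT-AS1 (1.96), FOXD2-AS1 (1.26), SBF2-AS1 (1.10) and BACE1-AS (1.07) completed the list, and BACE1-AS stood under its partner BACE1 (2.18).

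The comparison of APEX1-OE with Ctrl asks which transcripts changed with the APEX1 plasmid. No member passed the test: with edgeR's quasi-likelihood test and Benjamini-Hochberg adjustment over 16971 genes, 0 of the 598 members tested were called, beside 1 gene among all genes (0.00589%), which was APEX1. The log2 fold change of APEX1 was 2.42 (SE 0.17, adjusted p = 0.00809). At an unadjusted p under 0.05 there were 2 members (0.334%), against 0.695% of all genes. DESeq2 called 0 members, beside 1 gene among all genes. It had 1 member (0.167%) at an unadjusted p under 0.05, against 0.625% of all genes. RP4-545L17.11 was the 1 member removed by the filter on low counts, with 5 to 14 counts per library. The call of APEX1 was lost when APEX1-OE replicate 2 or 3, or Ctrl replicate 1 or 2, was left out, with adjusted p between 0.0674 and 0.210 from edgeR. Its log2 fold change stayed between 2.36 and 2.46 whichever library was left out, and the adjusted p from DESeq2 with all libraries was 7e-23.

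The median log2 fold change of the tested members was -0.09, with quartiles of -0.21 and 0.03, and that of all genes was 0.03. Fitted values were higher in APEX1-OE for 183 members and lower for 415. Without APEX1-OE replicate 3 these counts turned to 330 and 268, and without APEX1-OE replicate 1 they were 102 and 496. The median depended on single libraries. It was -0.34 without APEX1-OE replicate 1, where 19.4% of the members and 7.61% of all genes had an unadjusted p under 0.05, and 0.02 without APEX1-OE replicate 3.

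**Figure D3:**
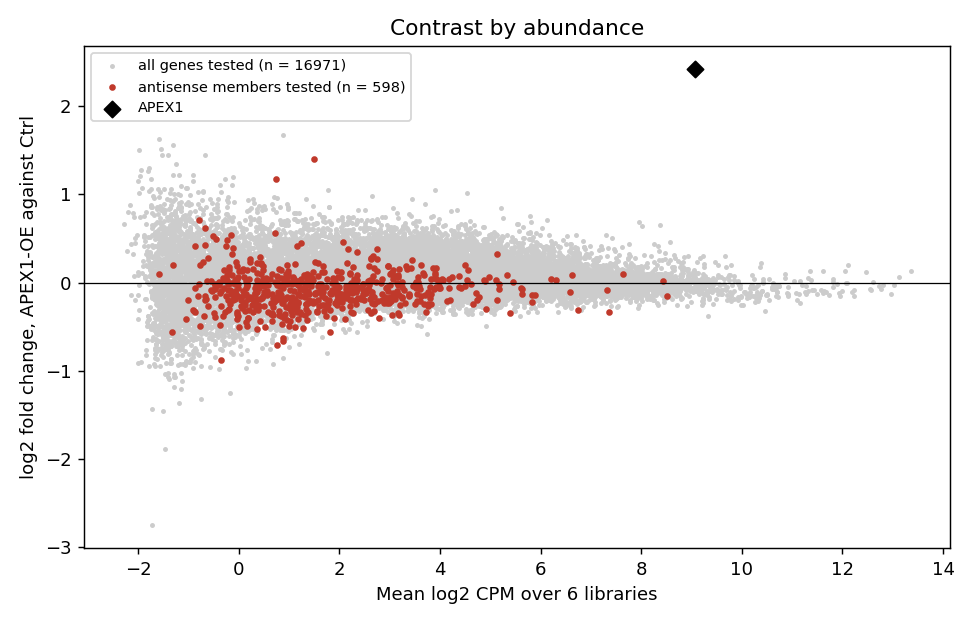
Log2 fold change of APEX1-OE against Ctrl by mean log2 CPM for all 16971 genes tested (grey), the 598 antisense members tested (red) and APEX1 (black diamond). APEX1 stands apart at 2.42, and the members spread around a median of -0.09.

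In 5 members all APEX1-OE values lay above all Ctrl values, which is 0.835% of the members against 0.877% of the genes with a mean FPKM of at least 1. In 17 members all lay below, which is 2.84% against 1.29%, and in 577 the groups overlapped. None of these members passed the test by edgeR or DESeq2.

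CTD-2035E11.3 had FPKM of 7.58, 3.33 and 2.31 in APEX1-OE and 1.99, 2.20 and 1.78 in Ctrl. APEX1-OE replicate 1 was far above the rest, and the log2 fold change was 1.18 (SE 0.51, adjusted p = 1.0 from edgeR). Without that library it was 0.39. RP11-1055B8.8, wholly covered by BAHCC1, had 1.36, 1.38 and 1.18 against 0.55, 1.06 and 0.73. CHKB-AS1 had 1.24, 1.68 and 1.35 against 1.07, 1.22 and 0.92, and MZF1-AS1 1.63, 1.99 and 1.82 against 1.46, 1.39 and 1.36. In CHKB-AS1 the gap between the groups was narrow.

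Among members that lay lower, CTD-2012K14.8 had 1.56, 1.02 and 1.43 in APEX1-OE and 2.62, 2.16 and 1.69 in Ctrl, a log2 fold change of -0.71 (SE 0.32, adjusted p = 1.0 from edgeR). LINC01433 had 3.59, 2.46 and 4.19 against 5.43, 4.63 and 4.84. AC142528.1, opposite ADI1, had 1.27, 1.80 and 1.44 against 1.81, 2.25 and 2.24, so that its nearest libraries were almost level. CTB-167B5.1, opposite the calcium-binding gene SRI, had 1.48, 1.02 and 1.36 against 1.68, 1.68 and 2.03. MYLK-AS1, opposite the myosin light chain kinase gene MYLK, had 0.79, 0.87 and 0.99 against 1.19, 1.15 and 1.21.

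**Figure D4:**
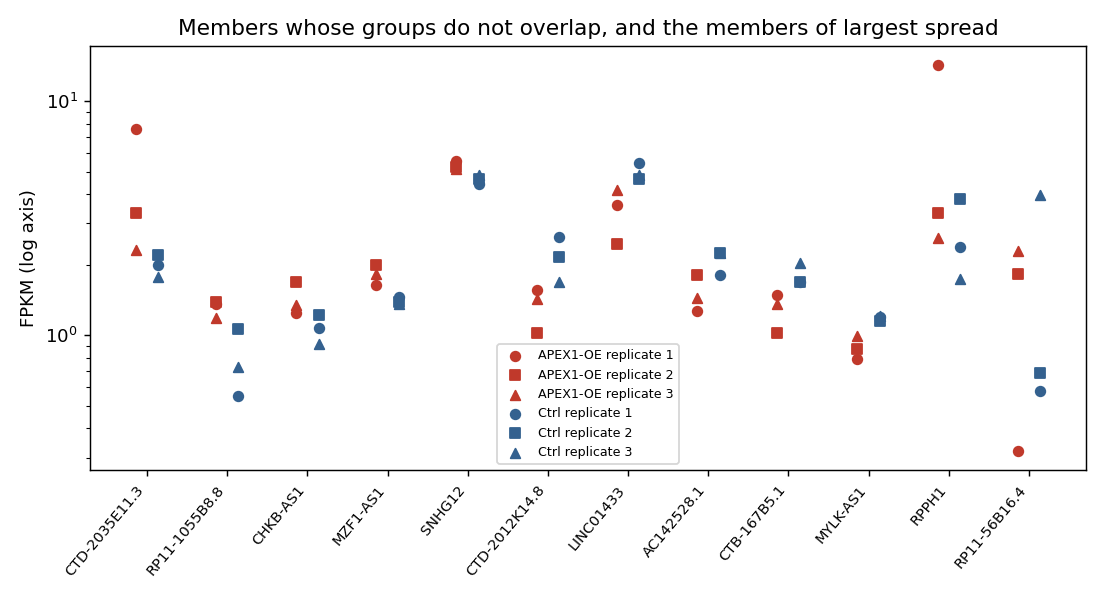
FPKM (log axis) in each library of named members whose groups do not overlap and of the members with the largest spread. CTD-2035E11.3 and the row named RPPH1 are highest in APEX1-OE replicate 1 (7.58 and 14.2).

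The coefficient of variation over the 6 libraries had a median of 20.9% in the members and 19.7% in coding genes with a mean FPKM of at least 1. It was largest in the row named RPPH1, at 101%, with FPKM of 14.2, 3.32 and 2.60 in APEX1-OE and 2.39, 3.81 and 1.73 in Ctrl. The identifier of this row belongs to an lncRNA of 638 bases on the minus strand at chr14:20343048-20343685, whose span holds the 333 bases of RPPH1, the RNA of ribonuclease P. RP11-56B16.4, wholly covered by the tropomodulin gene TMOD3, had 0.32, 1.82 and 2.28 in APEX1-OE and 0.58, 0.69 and 3.98 in Ctrl. TMOD3 was low in the same libraries, with 4.88, 14.2 and 17.2 in APEX1-OE and 6.39, 6.68 and 14.7 in Ctrl.

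The members as a set were highest in APEX1-OE replicate 1. They took 0.594%, 0.451% and 0.420% of all counts in APEX1-OE, and 0.496%, 0.535% and 0.530% in Ctrl. The median deviation of a member from its own mean, in log2 CPM, was 0.32, -0.17 and -0.31 in APEX1-OE and 0.07, 0.17 and -0.04 in Ctrl. For the 125 wholly covered members it was 0.51, -0.29 and -0.42 in APEX1-OE and 0.02, 0.23 and 0.03 in Ctrl. The partners of these members had deviations of the same sign in APEX1-OE, with 0.26, -0.06 and -0.25, and had 0.12, 0.14 and -0.23 in Ctrl (n = 122). LincRNAs with a mean FPKM of at least 1 had 0.11, -0.02 and -0.11, and 0.06, 0.04 and -0.05. Coding genes with a mean FPKM of at least 1 stayed between -0.05 and 0.04.

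Most of the variance between libraries (72.6%, the first principal component of log2 CPM) did not follow the plasmid. On this component APEX1-OE replicate 1 fell beside Ctrl replicates 1 and 2, and the remaining libraries of APEX1-OE beside Ctrl replicate 3. These sets come from the data and are not groups of the study. Among genes with a mean FPKM of at least 1, 27.9% were higher in every library of the set with APEX1-OE replicate 1 than in any of the other set, and 43.5% were lower throughout. For the members tested the shares were 28.3% and 12.5%. Within the set with APEX1-OE replicate 1, the median deviation of the members was higher in APEX1-OE than in Ctrl by 0.20, and within the other set the difference was -0.21. With the side of this component as a term in the edgeR fit, 0 members were called. In that fit 6.52% of the members had an unadjusted p under 0.05, against 11.6% of all genes. The members' median log2 fold change was -0.00, with fitted values higher in APEX1-OE for 298 members and lower for 300.

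Base composition moved with these deviations. GC content was available for 579 members, with a median of 53.9%, against 49.3% for coding genes with a mean FPKM of at least 1. In the members above the median GC, the deviation was 0.49, -0.25 and -0.45 in APEX1-OE and 0.12, 0.23 and -0.14 in Ctrl. In those at or under it the values were 0.14, -0.10 and -0.13, and 0.00, 0.07 and 0.06. Coding genes above the same GC content had 0.42, -0.14 and -0.31 in APEX1-OE and 0.19, 0.18 and -0.33 in Ctrl, so that Ctrl replicate 3 was lower in them than in the members. The part of GC content in the members' differences was not tested.

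**Figure D5:**
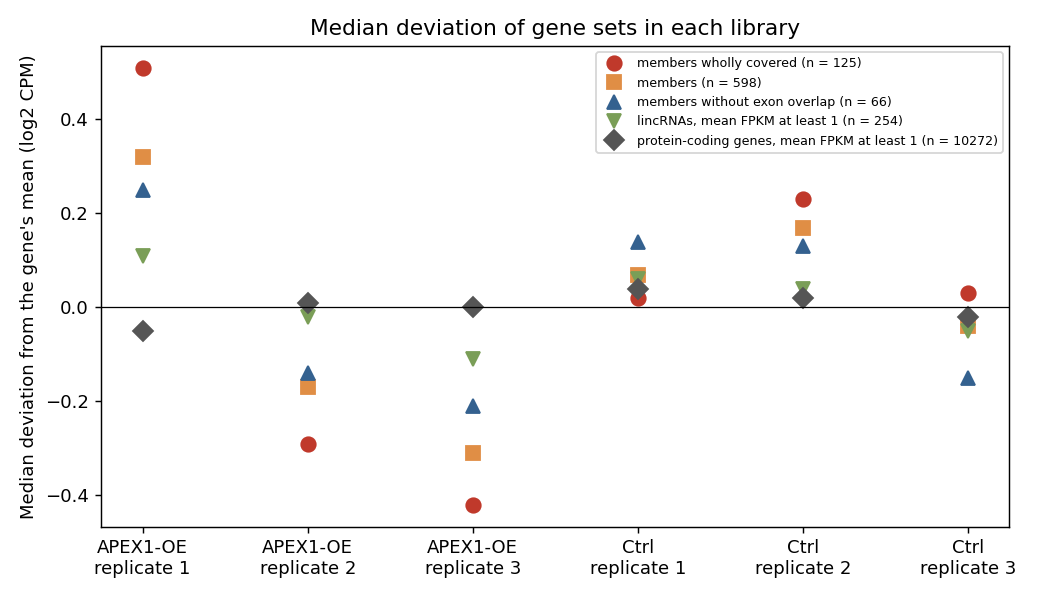
Median deviation of each gene set from the gene's mean over the 6 libraries, in log2 CPM, for each library. Wholly covered members range from 0.51 in APEX1-OE replicate 1 to -0.42 in APEX1-OE replicate 3, and the median of all coding genes lies near 0, which holds genes that deviate in opposite directions (those of high GC content reach 0.42 and -0.33).

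The ratio of antisense to partner FPKM differed between libraries as well. Over 101 wholly covered rows with a partner of at least 10 FPKM, its median was 0.167, 0.129 and 0.126 in APEX1-OE, and 0.139, 0.169 and 0.189 in Ctrl. The groups overlapped. The ratio was highest in Ctrl replicate 3 for 43 rows and in APEX1-OE replicate 1 for 39, and lowest in APEX1-OE replicate 3 for 42. Ctrl replicate 3 and APEX1-OE replicate 3, with the highest and the lowest median, lie on the same side of the first principal component.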

How the data were processed

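RNA-seq libraries of A549 cells, 3 APEX1-OE and 3 Ctrl, were analysed as grouped by their labels. The authors trimmed the reads, aligned them to GRCh38 with TopHat2 and deposited raw counts per gene. From the same reads the authors deposited FPKM per gene. No source used here names the counting tool or annotation, or says whether counting used strand.

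All genes were tested on the counts with edgeR 4.0.16 in R 4.3.3 (filterByExpr with a minimum count of 10 and a minimum total of 15, TMM, robust quasi-likelihood F-test, condition as the only term, Benjamini-Hochberg at 0.05). Alternatives used DESeq2 1.42.0 and limma 3.58.1. The edgeR script was run on simulated counts of small spread, as a check of the code only. Gene models came from GENCODE release 44, in Python 3.11.15. A partner was the opposite-strand gene with the longest exon overlap, else body overlap, else the head-to-head coding neighbour.

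Genes were named by abundance (12), groups that do not overlap (up to 5 each way), nearness to the threshold, spread, a list of described antisense RNAs and the ratio to the partner. Members and lists were chosen with earlier results of these data known. Partners of some members are not reported here.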

Additional observations from a re-analysis of the deposited data

How the results depend on the processing

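No member was called under any of the 14 other fits or at a member threshold of 0.5 or 2 FPKM. The count of all genes called was 4 with the first component's side as a term, 10 with no filter on low counts and 2 with the replicate block, and lay between 0 and 1 when each library was left out. Whether the replicate numbers pair the libraries was not settled: deviations of same-numbered libraries correlated at 0.607, -0.521 and 0.70. The member median with the replicate block was -0.13. When each library was left out, that median lay between -0.34 and 0.02.

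Thresholds of 0.5 and 2 FPKM gave 977 and 334 members, of which 13 and 2 lay higher and 35 and 8 lower without overlap. Over all genes at these thresholds, 1.09% and 0.873% lay higher and 1.53% and 1.11% lower. The share with exon overlap was 82.4% at a minimum of 100 bases. The share with a head-to-head neighbour was 21.4% within 500 and 41.8% within 2000 bases. Causes were not tested, beyond the width of each threshold. Among 46 named members tested, the sign of the fold change differed in 15 without APEX1-OE replicate 3 and in 12 with the component as a term, and none was called. What depth limits was not measured; the median count of a member in a library was 92.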
